A study of Mus musculus with 12 samples.

Results

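The genes described here are the Rab GTPases and the regulators that carry Rab in their symbol, taken as all gene symbols that start with Rab and a digit and occur in both deposited tables. They are 48 of the 10080 genes shared by the tables, made up of 42 Rab GTPases and 6 regulators or effectors (Rab3gap1, Rab3gap2, Rab3ip, Rab11fip1, Rab11fip2 and Rab11fip3). The study compared Ba/F3 cells, a mouse lymphoid line that grows on interleukin-3, carrying wild-type (WT) human RPL10 or the leukemia-associated R98S mutant of this ribosomal protein. All cells of both genotypes received the human RPL10 from a retroviral vector and an shRNA against the endogenous mouse Rpl10. Each culture was grown from a single cell, so each line is 1 clone. R98S clones 11, 13 and 35 and WT clones 28, 29 and 36 were each profiled by ribosome footprinting, which sequences the mRNA fragments protected by translating ribosomes (ribosome-protected fragments, RPF), and by mRNA sequencing, giving 12 libraries. Cells of all 12 libraries received 100 µg/ml cycloheximide for 5 min before lysis.

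Rab GTPases form a branch of the Ras superfamily and mark the membranes between which vesicles move. Exchange factors (GEFs) load a Rab with GTP, the active Rab recruits effectors such as tethers and motor adaptors, and GTPase-activating proteins (GAPs) return it to the GDP-bound state. Most Rabs are held in the membrane by lipid groups that Rab geranylgeranyl transferase attaches to cysteines at the carboxyl end. The Rab3 GTPase-activating complex is a heterodimer of a catalytic subunit, encoded by Rab3gap1, and a non-catalytic subunit, encoded by Rab3gap2. It inactivates Rab3, which acts in regulated secretion, and it activates Rab18.

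The end of the coding sequence separates the GTPases from their regulators, so the last 24 coding bases are shown for Rab12, Rab2a and Rab13, which passed a test below, for Rab27a, a relative of another that did, for Rab7, the member with the most footprints per length, and for both subunits of the Rab3 complex. They were read from the mouse genome GRCm38 (mm10) with GENCODE coding models, on the strand of the gene and including the stop codon, and capitals mark each in-frame cysteine codon.
Rab12 (chr17:66494512-66519729, minus strand): agaccacacgtccgaTGCTGTtga
Rab2a (chr4:8535644-8607778, plus strand): caggcagggggaggcTGCTGTtga
Rab27a (chr9:73044854-73097629, plus strand): gagaaggggttgTGTggcTGTtga
Rab13 (chr3:90213695-90226385, plus strand): aagaacaagTGCttgttaggctga
Rab7 (chr6:87999106-88045270, minus strand): tccgcagaaagcTGCagtTGTtga
Rab3gap1 (chr1:127868773-127943868, plus strand): tcctcagacacctcctttttctag
Rab3gap2 (chr1:185204117-185286759, plus strand): gtggaagccatggcgactttatga
Coordinates are those of the whole gene. Rab12 and Rab2a end in a pair of adjacent cysteine codons, Rab27a and Rab7 have 1 codon between their cysteine codons, and Rab13 has a single cysteine codon followed by 3 others. Among the last 4 codons before the stop, 30 of the 42 GTPases (71.4%) had at least 2 cysteine codons and 42 of 42 had at least 1. None of the 6 regulators had one there, and 292 of 21526 annotated coding genes (1.36%) had at least 2.

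The deposited values are gene counts divided by a size factor, given below as normalised counts, and whole reads could be recovered from them. Depth ranged from 20576796 to 22178094 reads in the R98S mRNA libraries and from 6617457 to 23136595 in the WT ones, where clone 28 was lowest and 1 of its reads is worth 2.69 normalised counts. For RPF it ranged from 3477723 to 10883086 in R98S and from 4611390 to 7162305 in WT. In such gene counts, reads of the human transgene and of mouse Rpl10 cannot be told apart. Rpl10, at 1449 to 2905 normalised mRNA counts in R98S and 2230.2 to 4501 in WT, therefore does not check the knockdown or the genotype. The paper checked the knockdown by qPCR and the mutant by sequencing of cDNA. All 3 genes of the interleukin-3 receptor list were expressed, with a summed level of 95080 to 117075 normalised mRNA counts in R98S against 42064 to 80899 in WT. This sum consisted mostly of Csf2rb and Csf2rb2. Il3ra overlapped between the genotypes, at 560 to 859 in R98S against 719 to 1112 in WT. Further, 3 of 10 pro-B cell markers reached a mean of 10 normalised counts, and Pax5, Il7r and Rag1 were at 0 in all mRNA libraries. None of 5 T cell markers, 3 of 4 erythroid markers and 1 of 5 monocyte or neutrophil markers reached that level, and the summed level of the last list was 0 to 25.8 in R98S against 31.3 to 54.1 in WT. Of 6 mast cell or basophil markers 4 did, with Kit at 0. Their summed level was 12445 to 15918 in R98S against 20512 to 26601 in WT and consisted mostly of Gata2. Without Gata2 the order turned, with 410.3 to 1300 in R98S against 145 to 329 in WT, and Cpa3, a mast cell protease, had 644, 253 and 787 against 13.4, 174 and 54.9. The summed levels of the pro-B, T cell and erythroid lists overlapped between the genotypes. In such bulk libraries, fewer cells with a transcript and less of it per cell cannot be told apart.

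Translation efficiency (TE) is the ratio of RPF to mRNA in the same clone. Differences are R98S minus WT on the log2 scale after adding 1 to each value, which understates the change of low genes, and a gene passed when its Benjamini-Hochberg adjusted p from limma over all tested genes was under 0.1. Clones are the replicates, so p-values reflect the spread between 3 clones per genotype. The Rab genes as a whole stood close to the rest of the transcriptome. In mRNA, 2 of 47 tested members passed (4.26%), against 6.94% of all 11344 tested genes. Rab3gap1 rose, as did 3.03% of all genes, and Rab12 fell, as did 3.91%. On the recovered reads edgeR called 3 members (background 7.10%) and DESeq2 6 (background 11.3%), and 9 had an unadjusted p under 0.05 (background 17.9%). In RPF, 3 of 47 passed (6.38%), against 7.76% of 9580 genes. Rab2a rose (3.13% of all genes rose), and Rab13 and Rab27b fell (4.62% fell). Here edgeR called the same 3 members (background 8.43%), DESeq2 called 5 (background 11.4%) and 8 had an unadjusted p under 0.05 (background 20.3%). In TE, 0 of 45 passed with limma, against 0.0221% of 9043 genes. At an unadjusted p under 0.05 there were 6 members in TE, against 7.85% of all genes. On the recovered reads, without pairing by clone, 1 member, Rab3gap1, passed with edgeR (background 0.0221%) or DESeq2 (background 0.0664%). All R98S clones lay on one side of all WT clones for 10 of 47 members in mRNA (21.3%, background 23.5%), for 11 of 47 in RPF (23.4%, background 25.3%) and for 9 of 45 in TE (20.0%, background 14.8%). The median change of the tested members was -0.13 in mRNA, -0.04 in RPF and 0.08 in TE, and that of all tested genes was 0.01 in mRNA and RPF and close to 0 in TE. A change below 0.5 in either direction was found for 37 of 47 members in mRNA, 37 of 47 in RPF and 39 of 45 in TE. In this the members were close to all genes. The median absolute change was 0.29 in mRNA, 0.27 in RPF and 0.21 in TE, against 0.26, 0.28 and 0.21 for all tested genes.

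**Figure D1:**
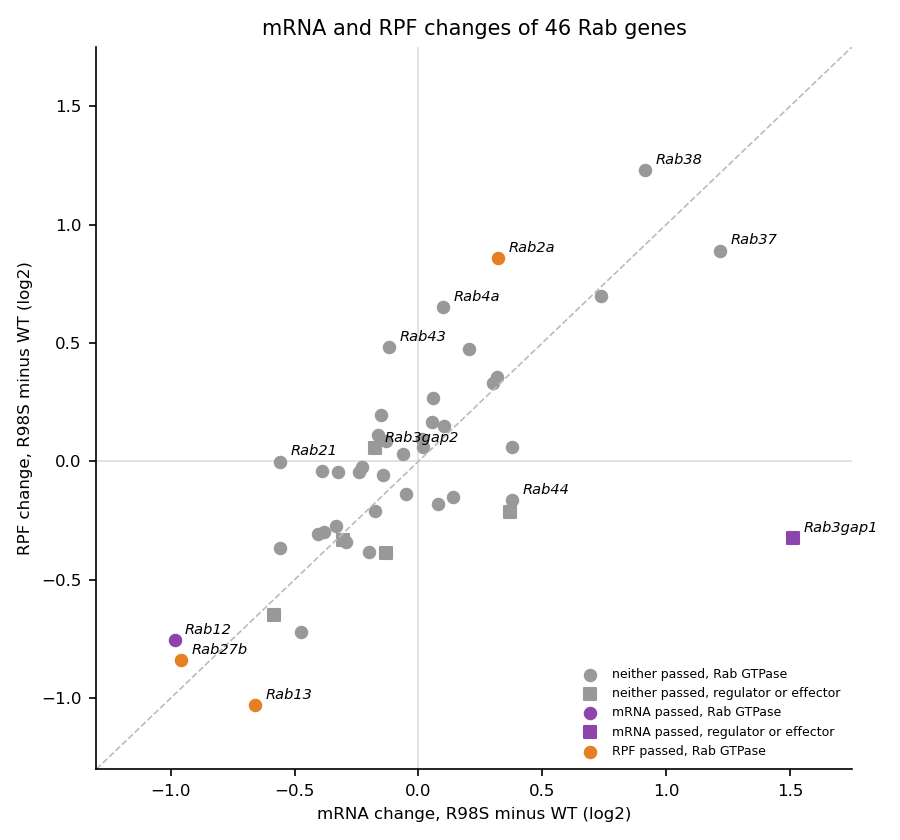
Change in RPF (vertical axis) against change in mRNA (horizontal axis), R98S minus WT on the log2 scale, for the 46 Rab genes tested in both assays; the dashed line marks equal change, squares are regulators or effectors, and colours mark genes that passed in mRNA (purple) or in RPF (orange). Rab3gap1 lies far to the right of the line, at 1.51 in mRNA and -0.32 in RPF, while Rab12, Rab27b and Rab13 lie in the lower left corner.

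Rab3gap1 was the member in which mRNA and RPF parted. In R98S clones 11, 13 and 35 its mRNA stood at 4309, 3748 and 5491 normalised counts, whereas WT clones 28, 29 and 36 had 1504, 1537 and 1653. Every R98S clone was thus above 2 times the highest WT clone. The means were 4516 ± 889 and 1564 ± 78.2 (SD, n = 3 each), a ratio of 2.89. The log2 change was 1.51 (SE 0.18), with a limma adjusted p of 0.00204, and it was the highest of the 47 tested members, followed by Rab37 at 1.22. The call held without each clone in turn, where the change lay between 1.36 and 1.64. No other annotated gene shares exon bases with Rab3gap1. Its mRNA was counted over 11.7 kb of exon, and its RPF only within 2.96 kb of coding sequence. Such gene counts do not show where in the gene the additional mRNA reads lie, and this was not tested.

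Its footprints showed no such rise. Rab3gap1 had 426, 487 and 353 normalised RPF counts in the R98S clones and 561, 512 and 501 in the WT clones. All R98S clones were below all WT clones, but by a small margin. The change was -0.32 (SE 0.19) and did not pass, with a limma adjusted p of 0.359.

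The ratio of footprints to mRNA followed from both. TE was 0.0991, 0.130 and 0.0644 in the R98S clones against 0.373, 0.334 and 0.303 in the WT clones, so that the lowest WT clone was above 2 times the highest R98S clone. The TE change was -1.84 (SE 0.27), the lowest of the 45 tested members and rank 3 from the bottom of 9043 genes. The next lowest member was Rab44, at -0.54. Whether the change passed the threshold depended on the test. With limma on the clone ratios, its adjusted p was 0.136, and it was 0.0881 or 0.0759 where the variance trend followed the mean RPF or mRNA level in place of the mean ratio (background 0.0221% and 0.0442% of genes called). The interaction of genotype and assay on whole reads gave an adjusted p of 0.0185 with edgeR and 2.93e-08 with DESeq2. With the clone added as a block these were 0.0541 (background 0.0332%) and 1.72e-07 (background 0.597%), and limma without the pairing of libraries by clone gave 0.0224 (background 0.0332%). Without 1 clone, the limma adjusted p lay between 0.118 and 0.849, with a change between -2.07 and -1.56.

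Rab3gap2, which encodes the partner subunit, showed neither pattern. Its mRNA was 1634, 1521 and 1053 normalised counts in R98S and 1547, 1325 and 1845 in WT, with overlapping clones (change -0.18, limma adjusted p 0.728). Its RPF was 590.3, 596 and 408 against 447, 484 and 589, also overlapping (change 0.06, adjusted p 0.906). TE was 0.362, 0.392 and 0.388 against 0.289, 0.366 and 0.320 (change 0.23, adjusted p 0.713). Of its exon bases, 18.8% overlap Iars2 on the opposite strand, and the strand setting of the counting is not given in the sources used here.

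**Figure D2:**
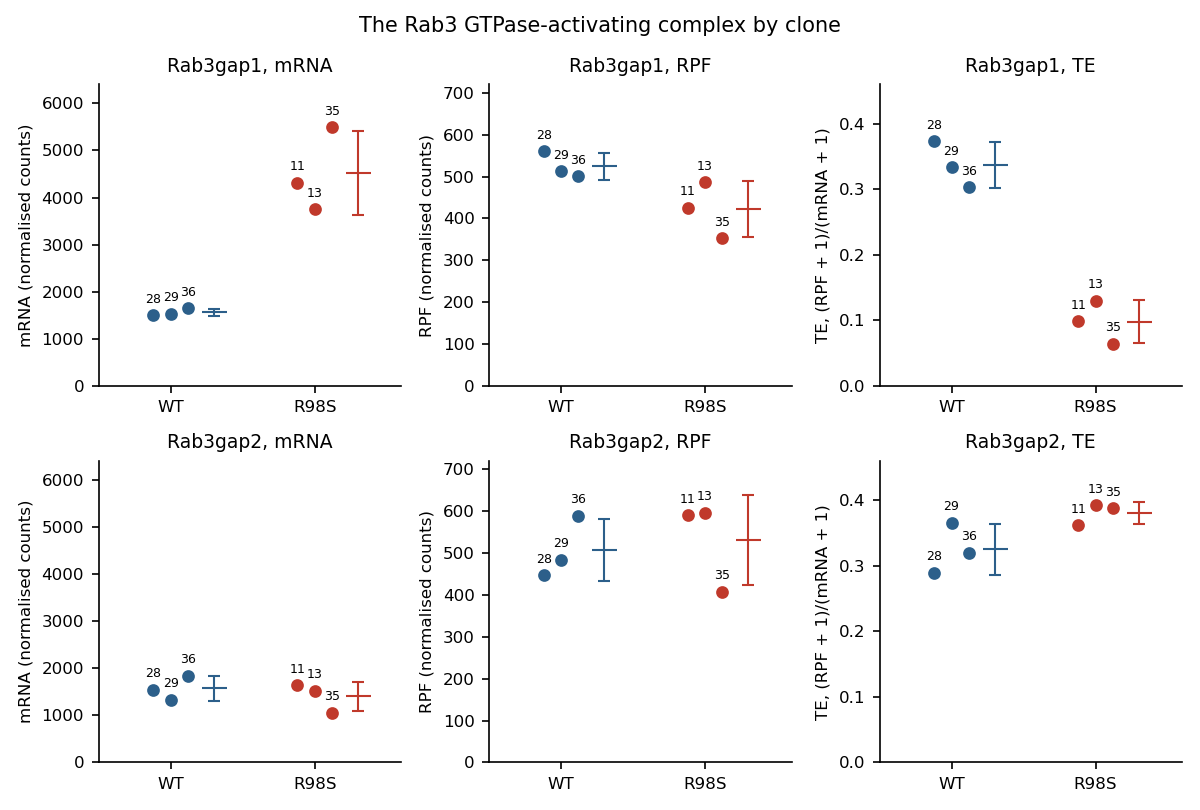
Normalised mRNA counts, normalised RPF counts and TE as (RPF + 1)/(mRNA + 1) of Rab3gap1 (top) and Rab3gap2 (bottom) in WT (blue) and R98S (red) clones; points are clones with their numbers, and bars give the mean and SD of 3 clones. Rab3gap1 mRNA was 3748 to 5491 in R98S and 1504 to 1653 in WT while its RPF was 353 to 487 and 501 to 561, and the clones of Rab3gap2 overlapped in all panels.

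The 2 subunits were also set against each other within each library, which removes the scaling of the library and, since both genes lie on chromosome 1, any shift shared by that chromosome. Such a shift was present: the median mRNA deviation of genes on chromosome 1 was 0.20, 0.20 and -0.08 on the log2 scale in R98S clones 11, 13 and 35, and -0.18, -0.08 and -0.04 in WT clones 28, 29 and 36. In mRNA, log2 Rab3gap1 minus log2 Rab3gap2 was 1.40, 1.30 and 2.38 in the R98S clones and -0.04, 0.21 and -0.16 in the WT clones. The WT clones thus held both transcripts at nearly the same normalised count, and the genotypes differed by 1.69, or 3.22-fold (exact two-sided permutation p = 0.1). In RPF the difference was -0.47, -0.29 and -0.21 against 0.33, 0.08 and -0.23, and the clones overlapped (exact permutation p = 0.2). In TE it was -1.87, -1.59 and -2.59 against 0.37, -0.13 and -0.08, a difference of -2.07 (exact permutation p = 0.1). With 3 against 3 clones, 0.1 is the smallest p this test can give.

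Per length, the place of Rab3gap1 within the family shifted in mRNA and not in RPF. Its mRNA per kb of exon was 133 ± 6.66 normalised counts in WT and 385 ± 75.8 in R98S, which moved it from rank 33 to rank 15 of 48. Its RPF per kb of coding sequence was 181 ± 11.0 in WT and 145 ± 23.2 in R98S, rank 27 in both. Length-normalised TE, relative to the median gene and on the log2 scale, was 0.43 ± 0.10 in WT and -1.41 ± 0.52 in R98S, or rank 12 and rank 42 of 45 members. For Rab3gap2 these ranks were 27 and 24.

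**Figure D3:**
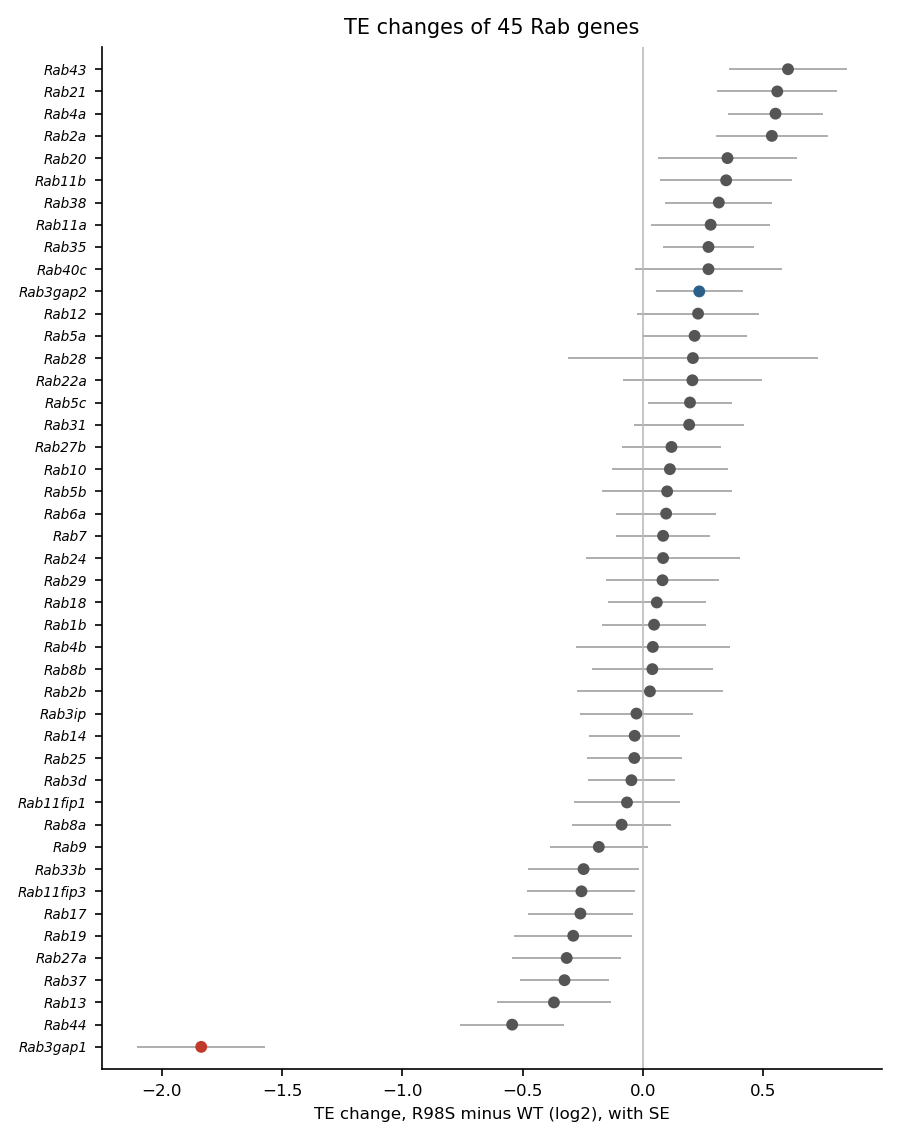
Change in TE, R98S minus WT on the log2 scale, of the 45 tested Rab genes in order of size, with the standard error of each; Rab3gap1 is red and Rab3gap2 blue. Rab3gap1 lies apart at -1.84, and the other 44 members lie between -0.54 and 0.60.

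The Rab3 proteins on which this complex acts were Rab3a and Rab3d. Rab3d, the form found in secretory cells outside the nervous system, had 915, 726 and 834 normalised mRNA counts in R98S and 851, 1138 and 1052 in WT, with overlapping clones (change -0.29, limma adjusted p 0.465). Rab3a, the synaptic vesicle form, had at most 33.6 normalised mRNA counts in R98S and at most 43.0 in WT, and its RPF rested on as few as 2 reads in a library, so a difference was not detectable at this depth. Rab18, which the complex activates, had a change of -0.33 in mRNA (adjusted p 0.388) and -0.27 in RPF (adjusted p 0.526).

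Among the Rabs of late endosomes and lysosomes, 1 of 5 passed in mRNA (background 6.94%) and 0 of 5 in RPF (background 7.76%) with limma. In RPF edgeR called 0 (background 8.43%). There DESeq2 (background 11.4%) and an unadjusted p under 0.05 (background 20.3%) gave 1, Rab12. In groups as small as this and those below, 1 call does not set a group apart from all genes. Rab12, which directs transferrin receptor from recycling endosomes to lysosomes, had 586, 451 and 645 normalised mRNA counts in R98S and 1189.6, 1012 and 1099 in WT. The clones were far apart, and the change was -0.98 (SE 0.20, limma adjusted p 0.0244). The call was lost without R98S clone 13 (adjusted p 0.106). Its RPF was 78.7, 67.0 and 78.9 against 97.4, 133 and 157, without overlap, and the change of -0.76 did not pass (adjusted p 0.123). Its TE change was 0.23 (adjusted p 0.792). Rab7, the principal Rab of late endosomes, was close to even between the genotypes in both assays (-0.14 in mRNA and -0.06 in RPF, adjusted p 0.698 and 0.874).

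The Rabs of recycling endosomes and of delivery to the plasma membrane numbered 13. With limma 1 passed in RPF (background 7.76%) and 0 in mRNA (background 6.94%). That gene was Rab13. In mRNA, 2 had an unadjusted p under 0.05 (Rab13 and Rab25, background 17.9%). There edgeR called 0 (background 7.10%) and DESeq2 called Rab13 (adjusted p 0.0930, background 11.3%). Rab13, which carries cargo to cell junctions and the leading edge, had 60.1, 64.5 and 72.2 normalised RPF counts in R98S and 109, 183 and 123 in WT. The R98S clones lay close together and below every WT clone, and RPF fell by 1.03 on the log2 scale (SE 0.26, limma adjusted p 0.0541). Its mRNA was 241, 183 and 259.6 against 379, 382 and 316, without overlap (change -0.66, adjusted p 0.153), and its TE change was -0.37 (adjusted p 0.690). The median RPF deviation of chromosome 3, on which Rab13 lies, was 0.13, -0.30 and -0.22 in R98S clones 11, 13 and 35 and 0.14, 0.20 and 0.14 in the WT clones. With each chromosome centred on its median, the RPF change of Rab13 was -0.74 (adjusted p 0.164). It also missed the threshold without R98S clone 11 or 13 or WT clone 29 or 36, at adjusted p of 0.178, 0.182, 0.123 and 0.120.

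Of the 8 Rabs acting between endoplasmic reticulum and Golgi or at the Golgi, 1 passed, again in RPF (background 7.76%). Rab2a, which acts on the early secretory pathway, had 653, 523 and 591 normalised RPF counts in R98S and 238, 434 and 327 in WT. The lowest R98S clone was above the highest WT clone, and RPF rose by 0.86 (SE 0.23, limma adjusted p 0.0668). Its mRNA was 2398, 1830.4 and 2582 against 1797, 1998 and 1616, with overlapping clones (change 0.32, adjusted p 0.412). TE was 0.272, 0.286 and 0.229 against 0.133, 0.218 and 0.203, without overlap (change 0.54, adjusted p 0.629). The median RPF deviation of chromosome 4, on which Rab2a lies, was 0.05 to 0.15 in R98S clones and -0.10 to -0.06 in WT clones. After centring each chromosome the RPF change was 0.67 (adjusted p 0.131), and the call was also lost without R98S clone 11 or 13 or WT clone 28 or 36 (adjusted p 0.218, 0.163, 0.166 and 0.155). Its relative Rab2b had 24.3 to 37.2 normalised RPF counts in R98S and 19.1 to 27.7 in WT, and its RPF change was 0.33 (adjusted p 0.634).

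**Figure D4:**
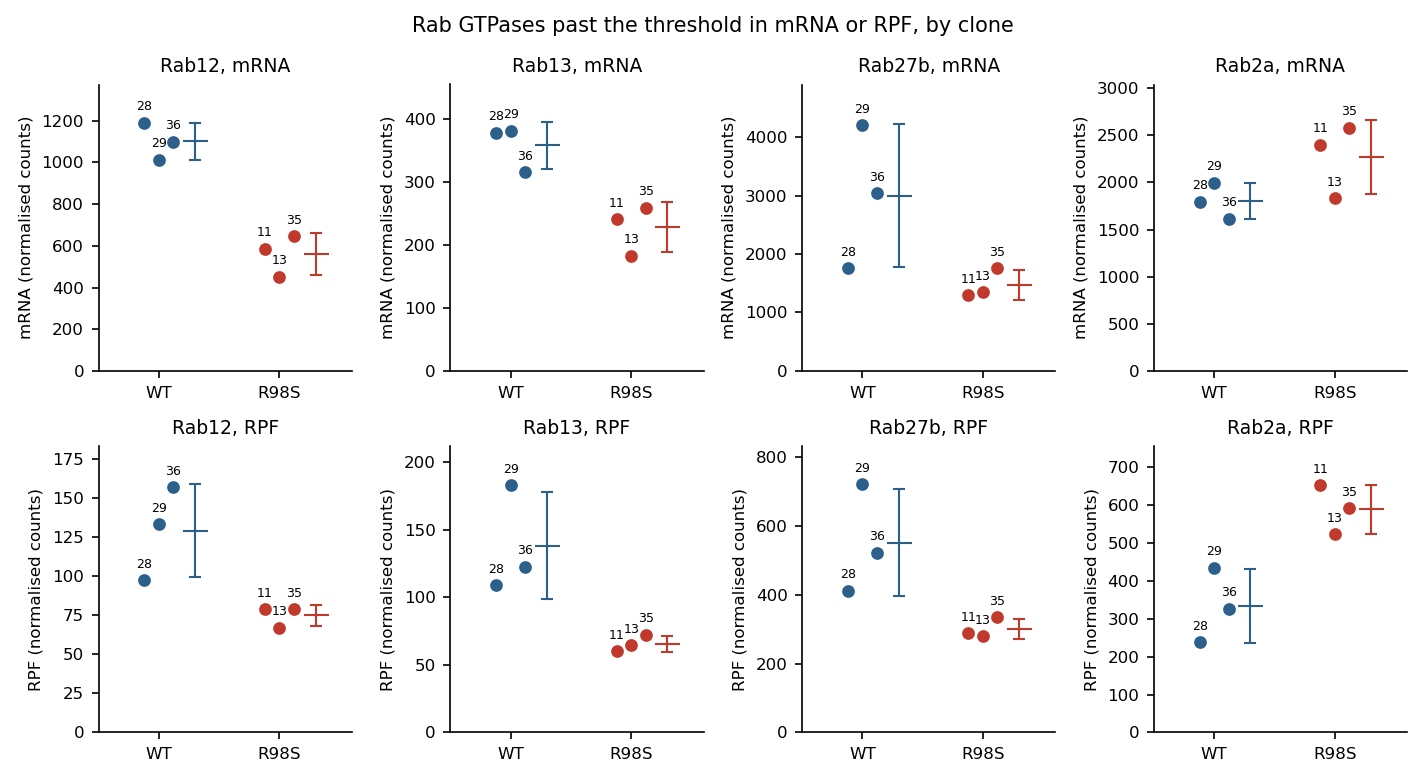
Normalised mRNA counts (top) and RPF counts (bottom) of the 4 Rab GTPases that passed in mRNA or RPF, in WT (blue) and R98S (red) clones; points are clones with their numbers, and bars give the mean and SD of 3 clones. In RPF all R98S clones of Rab12, Rab13 and Rab27b lie below, and those of Rab2a above, all WT clones, and in mRNA the genotypes overlap for Rab27b and Rab2a.

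Rabs of regulated secretion numbered 7, of which 0 of 6 tested passed in mRNA (background 6.94%) and 1 of 6 in RPF (background 7.76%) with limma. In mRNA, 2 had an unadjusted p under 0.05 (Rab27b and Rab37, background 17.9%). There edgeR called 1 (Rab27b, background 7.10%) and DESeq2 called both (background 11.3%). Rab27b, which docks secretory granules and exosome-producing endosomes at the plasma membrane, had 288, 279.9 and 334 normalised RPF counts in R98S and 412, 720.5 and 522 in WT. No R98S clone reached the lowest WT clone, and RPF fell by 0.84 (SE 0.22, limma adjusted p 0.0648). Its mRNA was 1292, 1349 and 1759.8 against 1756, 4202 and 3041. Here R98S clone 35 and WT clone 28 met, and the change of -0.96 did not pass (adjusted p 0.114). It passed without WT clone 28 (adjusted p 0.0116), the only call of the 6 fits without 1 clone (adjusted p up to 0.341). The RPF call was lost without R98S clone 11 or 13 or WT clone 29 or 36, at adjusted p of 0.192, 0.232, 0.138 and 0.150. Its relative Rab27a had RPF of 229.7, 235 and 317 against 283, 272 and 196, with overlapping clones (change 0.06, adjusted p 0.907), and an mRNA change of 0.38 (adjusted p 0.337).

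Rab37, a Rab of secretory granules in mast cells and macrophages, had 1336, 1505 and 1567 normalised mRNA counts in R98S and 411, 1287 and 473 in WT. WT clone 29 stood just below the R98S clones and apart from the other 2 WT clones. The change was 1.22 with a limma adjusted p of 0.114, and without WT clone 29 it was 1.73 (adjusted p 0.00279). Its RPF had the same shape, with 336, 391 and 415 against 146, 356 and 163 (change 0.89, adjusted p 0.133, and 1.29 with an adjusted p of 0.0149 without WT clone 29). Leaving out a clone that departs from its genotype enlarges such a change in any case. Of the 6 fits without 1 clone, only this one passed in either assay, with adjusted p up to 0.315 in mRNA and 0.336 in RPF. Rab44, a large atypical Rab with calcium-binding motifs, was the most abundant secretory member, at 9181 to 14566 normalised mRNA counts in R98S and 6069 to 12091 in WT. The mast cell and basophil markers given above, of which Gata2 was lower and Cpa3 higher in all R98S clones, did not move one way, and their part in the values of Rab27b and Rab37 was not tested.

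Rab38, which acts in the biogenesis of melanosomes and other lysosome-related organelles, differed between clones of one genotype. Its mRNA was 1242, 1009.8 and 183 normalised counts in R98S clones 11, 13 and 35 against 266, 391 and 329 in WT. Its RPF was 445, 316 and 63.8 against 86.9, 119.7 and 65.9. In both assays R98S clone 35 stood below all WT clones and the other R98S clones far above them. The changes of 0.91 in mRNA and 1.23 in RPF did not pass (limma adjusted p 0.474 and 0.264). Without R98S clone 35 they were 1.78 (adjusted p 0.00888) and 2.08 (adjusted p 0.00470). Leaving out a clone that departs from its genotype enlarges such a change in any case. Of the 6 fits without 1 clone, only this one passed in either assay, with adjusted p up to 0.860 in mRNA and 0.611 in RPF.

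None of the 7 early endosome Rabs passed in mRNA, RPF or TE with limma, edgeR or DESeq2 on all clones. The limma backgrounds were 6.94%, 7.76% and 0.0221%. Without WT clone 28, the shallowest mRNA library, Rab31 and Rab5b passed in mRNA, with changes of -0.84 (limma adjusted p 0.0213) and -0.69 (adjusted p 0.0795). In no other fit without 1 clone did an early endosome Rab pass. An unadjusted p under 0.05 was found for 2 of the 7 in mRNA (Rab21 and Rab31, background 17.9%), 0 in RPF (background 20.3%) and 1 in TE (Rab21, background 7.85%). All 7 had a negative mRNA change, from -0.56 to -0.13, and all 7 had a positive TE change, from 0.10 to 0.56. Their RPF changes lay between -0.37 and 0.08, with a median of -0.04. As TE is RPF minus mRNA on this scale, the 2 signs are not separate observations. Rab21, which binds integrins during endocytosis, had the largest TE change. Its mRNA was 705, 691 and 935 against 1222, 929 and 1288, its RPF was 311, 229 and 285 against 221, 298 and 309.7, and this TE change was 0.56 (limma adjusted p 0.629).

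Other TE changes were small beside that of Rab3gap1. The largest positive ones were those of Rab43, Rab21 and Rab4a. Rab43, a Golgi Rab, had TE of 0.118, 0.109 and 0.0774 in R98S and 0.0665, 0.0644 and 0.0665 in WT, without overlap (change 0.60, limma adjusted p 0.629), but 75.4% of its exon bases overlap Gm45140 on the same strand. Rab4a, which drives fast recycling from early endosomes, had TE of 0.305, 0.280 and 0.228 against 0.169, 0.199 and 0.185 (change 0.55, adjusted p 0.629). Rab44 had 0.196, 0.224 and 0.244 against 0.254, 0.328 and 0.399 (change -0.54, adjusted p 0.629). For these 3 genes the clones did not overlap, and the change did not pass in any of the tests run.

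Levels between genes were compared as normalised RPF counts per kb of coding sequence, leaving out the codons at both ends that were not counted. In WT clones the members spanned from 7.71 ± 2.11 (Rab11fip2) to 2802 ± 218 (Rab7), around a median tested gene of 171. Rab7 was highest, followed by Rab5c, the early endosome Rab, at 2001 ± 72.2 and Rab1b, which acts from the endoplasmic reticulum to the Golgi, at 1453 ± 126. The same 3 genes led in R98S, at 2689 ± 175, 1941 ± 148 and 1618 ± 204. The ranges of Rab7 and Rab5c did not meet in either genotype, while neighbours further down the order often lay within each other's spread, such as Rab6a (1203 ± 167) and Rab8a (1195 ± 41.2) in WT. At the lower end were Rab11fip2, Rab3a (9.81 ± 4.88) and Rab26 (10.7 ± 1.62), whose spreads overlapped and whose lowest libraries held 7, 2 and 7 reads.

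**Figure D5:**
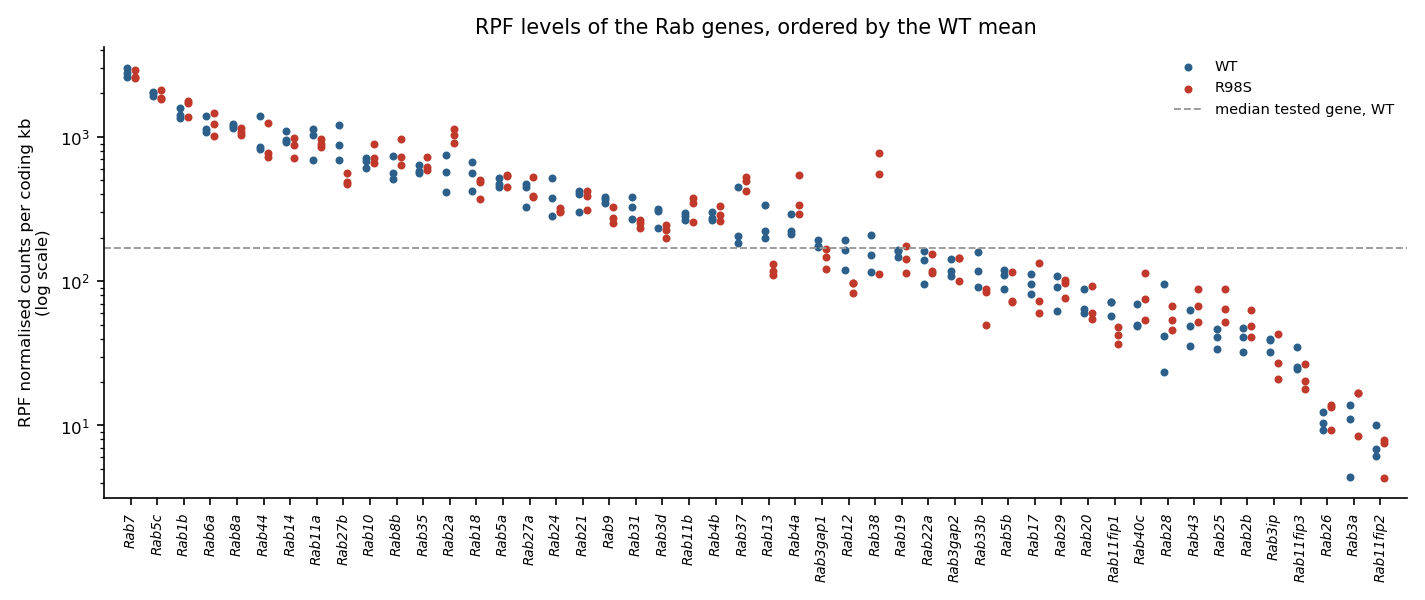
Normalised RPF counts per kb of coding sequence (log axis) of the 48 Rab genes in order of their WT mean; each point is a clone, WT in blue and R98S in red, and the dashed line is the median tested gene in WT, at 171. Rab7, Rab5c and Rab1b lead in both genotypes and Rab26, Rab3a and Rab11fip2 are lowest, and the R98S points of Rab27b and Rab13 lie below, and those of Rab2a above, the WT points.

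Rab4b and Rab26 stood apart in the ratio of the assays and are a pair picked out from the measured values rather than by the naming rule. Rab4b had 18.8 to 30.5 normalised mRNA counts over the 6 clones but 151 to 193 normalised RPF counts, and its length-normalised TE was the highest of 45 members in both genotypes (4.49 ± 0.29 in WT and 4.52 ± 0.21 in R98S, log2 relative to the median gene). Of its exon bases, 65.0% overlap Gm21983 on the same strand. Rab26 had at most 5.37 normalised mRNA counts, was at 0 in R98S clones 13 and 35, and had 9.22 to 13.8 normalised RPF counts. Of its exon bases, 9.36% overlap Traf7 on the same strand. The part of these overlaps in the ratios was not tested.

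Of the 6 regulators and effectors, Rab3gap1 alone passed, in mRNA (background 6.94%). Rab11fip1, an effector that links Rab11 to recycling, had 367, 391 and 461 normalised mRNA counts in R98S and 524, 609 and 696 in WT, and 129, 149 and 169.6 normalised RPF counts against 251, 251 and 200.3. The clones did not overlap in either assay, and the changes of -0.58 and -0.65 had limma adjusted p of 0.157 and 0.116, while both passed with DESeq2 (adjusted p 0.0779 and 0.0809). Of the limma fits without 1 clone, the mRNA change passed only without WT clone 28 (adjusted p 0.0856). The RPF change passed only without R98S clone 35 (adjusted p 0.0806). Rab3ip, an exchange factor of Rab8, and Rab11fip2 and Rab11fip3 had overlapping clones in both assays.

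Rab regulators and effectors whose symbols do not start with Rab were followed through a list of 128 genes, of which 126 were in the mRNA table and 102 in the RPF table. In mRNA 3 of 105 tested genes passed (2.86%), 1 higher and 2 lower. In RPF 4 of 101 passed (3.96%), 3 higher and 1 lower, and in TE 0 of 101 passed with limma (background 0.0221%). In TE 9 had an unadjusted p under 0.05 (background 7.85%), and edgeR and DESeq2 called 0. The called shares in mRNA and RPF lie below the 6.94% and 7.76% of all tested genes. Clones did not overlap for 18.1% of the list in mRNA, 27.7% in RPF and 9.90% in TE, against 23.5%, 25.3% and 14.8% of all tested genes, and the median change of the list was -0.02 in mRNA and 0.07 in RPF. Rgp1, a subunit of the exchange factor of Rab6, rose in both assays: 1587, 1689.5 and 1964 normalised mRNA counts against 1187, 1071 and 1177 (change 0.60, adjusted p 0.0825) and 173, 190.3 and 154 normalised RPF counts against 107, 77.0 and 75.1 (change 1.00, adjusted p 0.0398). Bicd1, an adaptor that links Rab6 vesicles to dynein, fell in both, with changes of -1.48 in mRNA (adjusted p 0.0512) and -1.83 in RPF (adjusted p 0.0754), with all R98S clones below all WT clones. Dennd2c, of the DENN family of exchange factors, fell by 1.48 in mRNA (adjusted p 0.0833), from 56.4 to 71.3 normalised counts in WT to 13.1 to 31.0 in R98S. Among the TBC-domain GAPs, Tbc1d10b rose by 0.91 in RPF (adjusted p 0.0534) and Tbc1d5, a GAP of Rab7, by 0.66 (adjusted p 0.0835). The 8 genes of prenylation and GDP dissociation inhibition held no call in mRNA or RPF with limma or edgeR. In mRNA 1, Rabggtb, passed with DESeq2 (background 11.3%) and had an unadjusted p under 0.05 (background 17.9%).

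A further 25 symbols that start with Rab and a digit occurred in the mRNA table only and had no RPF value to set beside it. They were 6 antisense, opposite-strand or pseudogene symbols and 19 genes of Rabs and regulators, and only Rab1, Rab11fip4 and Rab32 reached a mean of 10 normalised counts. They too were picked out from the measured values. Rab11fip4, an effector of Rab11, rose in mRNA, from 10.7, 7.42 and 9.40 normalised counts in WT to 54.8, 59.8 and 30.9 in R98S (change 2.24, limma adjusted p 0.0227), with as few as 4 reads in a WT library. Its WT clones alone did not reach a mean of 10. It entered the test only through its R98S clones, so its call is not independent of the filter. Rab32, a relative of Rab38, had 211, 159 and 187 normalised counts in R98S and 0, 95.7 and 103 in WT (adjusted p 0.308). The 0 was in WT clone 28, the shallowest library, where 1 read is worth 2.69 normalised counts. Its cause was not tested. Rab1, at 2686 to 3933 normalised counts, had a change of -0.19 (adjusted p 0.618).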

How the data were processed

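Ribosome footprints and mRNA were measured in 3 R98S and 3 WT clones. Per the series' design text, the authors merged 3 technical replicates of each footprint library. Per the paper's methods, they trimmed footprint reads, removed ribosomal and transfer RNA with Bowtie2, aligned with TopHat 2.0.11 to mm10 and filtered alignments for primary status and mapping quality. RPF were counted in coding sequences without the first 15 and last 5 codons, and mRNA over exons; the strand setting of the counting is not given in the sources used here. The authors deposited 1 table per assay of signal values, which are counts divided by DESeq2 size factors, normalised separately, so TE has no absolute scale. In each library 100% of values above 0 were whole multiples of 1 read (tolerance 1e-06).

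The members, lists and tests were chosen with earlier results of these data known. Genes named are Rab3gap1, Rab3gap2, members past the threshold and their relatives of the same number, the 3 largest changes in each direction and assay, the 3 highest and lowest RPF levels per kb, and listed pathway genes past the threshold. Exon and coding lengths, coordinates and coding ends came from GENCODE M21 and the GRCm38 genome, with 48 of 48 members matched. Using limma 3.58.1 in R 4.3.3, log2(value + 1) was tested with a variance trend for genes with a mean of at least 10 (mRNA, RPF), or at least 10 in all 12 libraries (TE), at a Benjamini-Hochberg adjusted p under 0.1. The libraries of a clone were paired by the clone number in the labels: their deviations from the genotype means correlated at a mean of 0.519 (0.218 to 0.681), and for 6 of 6 clones this was the highest correlation. On the recovered reads, edgeR 4.0.16 called 805 genes in mRNA and 808 in RPF and DESeq2 1.42.0 called 1283 and 1087; limma called 787 and 743. The tests were checked on simulated data. The study tested TE with Babel, which was not run here.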

Additional observations from a re-analysis of the deposited data

Results flagged for a closer look

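The TE difference of Rab3gap1 was singled out because its genotype effect differed between the 2 assays by a test of that difference. The edgeR interaction of genotype and assay on whole reads was -1.85 on the log2 scale (adjusted p 0.0185 over 9043 genes). That test treated the 2 libraries of a clone as independent. With the clone as a block edgeR gave an adjusted p of 0.0541, and limma on the clone ratios gave 0.136. All 3 R98S clones lay below all 3 WT clones in TE. Over the other tests of the same change the adjusted p lay between 2.93e-08 and 0.176, and between 0.118 and 0.849 without 1 clone, as given in the results.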

How the results depend on the processing

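Precision is limited by 3 clones per genotype, by the shallow mRNA library of WT clone 28 and by members with few footprints. In mRNA, 2 members passed; DESeq2 called 6, and leaving out 1 clone gave 1 (without R98S clone 13) to 6 (without WT clone 28). In RPF, 3 passed; chromosome centring gave 1, DESeq2 5, and leaving out 1 clone 0 (R98S clone 11, R98S clone 13 or WT clone 36) to 5 (R98S clone 35). Fits without a clone hold fewer samples. A pseudocount of 4, no filter on low values and edgeR kept both counts within 1.5 times.

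In TE, 0 members passed with limma on clone ratios, also with a pseudocount of 4, with a mean of at least 10 in each assay, after chromosome centring and without any 1 clone. One member, Rab3gap1, passed in the following. Without the replicate block, that is without the pairing by clone, limma gave -1.84 (adjusted p 0.0224), edgeR -1.85 (0.0185) and DESeq2 -1.84 (2.93e-08). With the clone as replicate block in the count tests, added after seeing the data, edgeR gave -1.83 (0.0541) and DESeq2 -1.83 (1.72e-07). With the variance trend on the mean RPF or mRNA level, also added later, limma gave -1.84 for both (0.0881 and 0.0759). These settings called 1 member each, and 2 to 54 of all genes; the pairing ended or made no other member's call. The cause of these differences was not tested.

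The mRNA change of Rab3gap2 was -0.30 to 0.017 with 1 clone left out, above 0 without R98S clone 35. Its RPF change turned to -0.11 after chromosome centring and was -0.036 to 0.24 with 1 clone left out, below 0 without R98S clone 11, R98S clone 13 or WT clone 28; none of these passed. The rise of Rab3gap1 mRNA passed in every alternative, with changes of 1.31 to 1.64.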
